A study of Sus scrofa with 12 samples.

Results

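The longissimus dorsi (LD) muscle of Dingyuan pigs with a high intramuscular fat content (HIMF) was compared with that of pigs with a low content (LIMF). The members were the 6 LD muscle libraries of the series, 3 in each group, taken by the group in their sample labels, out of 12 libraries in all. The other 6 libraries are back subcutaneous fat from pigs with high or low backfat (HBF and LBF). All pigs were of the Dingyuan breed, a fat native Chinese breed, and were 300 days old by the labels. The methods describe unmated sows, first picked by live backfat thickness and then grouped by the fat extracted from the muscle. No treatment or genotype separates the groups, each library is 1 sample of whole muscle, and the labels do not name the animal behind a library. P-values therefore measure only the spread between these samples.

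Intramuscular fat is stored in adipocytes that lie between muscle fibres and as droplets inside the fibres. Insulin acts on the fibre through its receptor and the IRS adaptor proteins to raise glucose uptake and to hold back FoxO transcription factors, which otherwise switch on ubiquitin ligases and autophagy genes. AMPK, an energy-sensing kinase, favours fatty acid oxidation. Slow fibres burn fat in mitochondria, while fast fibres rely on glycogen and glycolysis, and longissimus is a mostly fast muscle in the pig.

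Each LIMF library stood apart from the rest in its own set of genes. LIMF1 carried EIF1AY, a gene on chromosome Y (9687350 to 9704489), at 26.9 FPKM, and the other 5 muscle libraries were at 0. FPKM is the number of fragments of a gene, scaled for the length of its transcript and for the mapped fragments of the library. Of 6 Y-linked genes checked, only 2 had an identifier. The second, KDM5D, was near 0 in LIMF1, at 0.059, and at 0 in the other muscle libraries, while it was at 0.876 in HBF3. The level of EIF1AY in LIMF1 goes against the description of the animals as sows, but it rests on this 1 gene, and the sex was not tested. LIMF2 carried kidney genes, which were near 0 in the other muscle libraries. UMOD, the uromodulin gene of the kidney tubule, was at 11.7 FPKM in LIMF2 and at most 0.075 elsewhere in the muscle. SLC34A1, SLC22A8 and BHMT were at 6.89, 9.20 and 10.3 FPKM in LIMF2. All 15 kidney genes checked were above 0.2 FPKM in LIMF2 and 0 of them in the other 5 muscle libraries. Their sum was 63.0 FPKM in LIMF2 against 0.207 to 0.805. In the fat, EIF1AY was highest in HBF3 at 16.9 FPKM and the kidney sum was 48.3 in LBF2.

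LIMF3 stood apart by its slow fibre genes. MYL2, the slow myosin regulatory light chain, was at 10040 FPKM in LIMF3, at 5242 and 2152 in LIMF1 and LIMF2, and at 2367, 1002 and 4289 in HIMF. The 8 slow fibre genes with a value summed to 22600 FPKM in LIMF3 and to between 3022 and 9888 in the other libraries. By Spearman's correlation over the genes tested, the 3 HIMF libraries were at 0.971 to 0.972 with each other and the LIMF libraries at 0.934 to 0.948. LIMF3 was at 0.950 to 0.968 and LIMF1 at 0.953 to 0.961 with the HIMF libraries, so both were closer to these than to any other LIMF library. The LIMF libraries were thus less alike than the HIMF libraries. The part of these differences in the results was not tested.

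**Figure D1:**
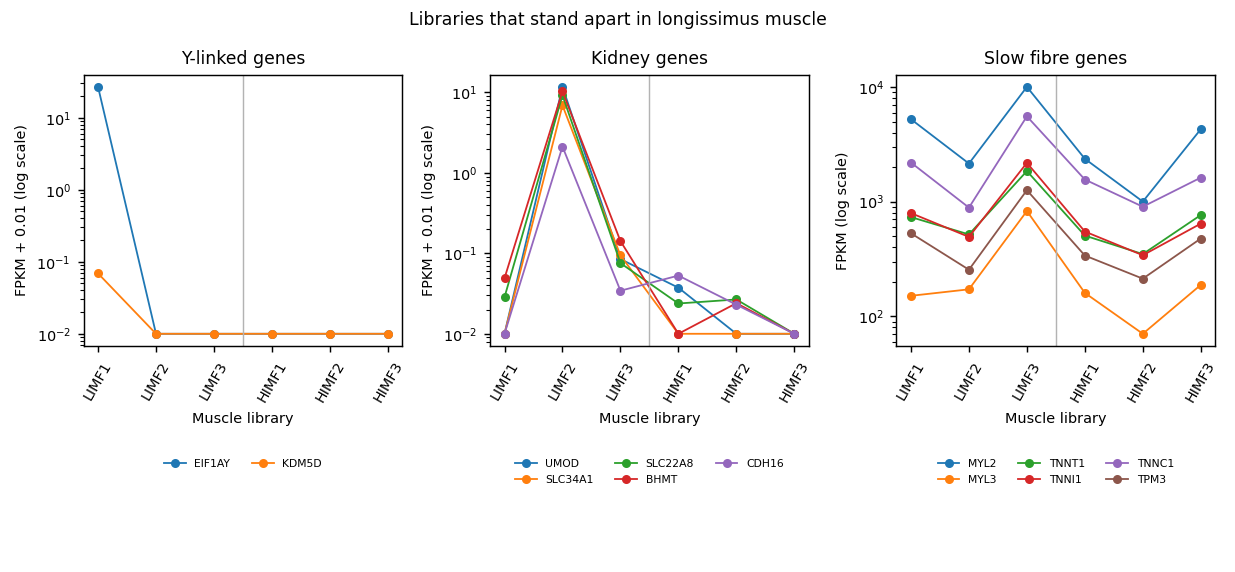
FPKM in each of the 6 muscle libraries (x axis) for 2 Y-linked genes, 5 kidney genes (both as FPKM + 0.01) and 6 slow fibre genes, on log axes, with the vertical line between LIMF and HIMF. EIF1AY is at 26.9 FPKM in LIMF1 alone, the kidney genes peak in LIMF2, where UMOD is at 11.7, and the slow fibre genes peak in LIMF3, where MYL2 is at 10040.

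Some of the most abundant muscle genes were listed at exactly 0 in single libraries, which can be a failed estimate. CKM, the muscle creatine kinase, was listed at 0 in LIMF2 and LIMF3 and at 7172 to 9288 FPKM in the other 4 libraries. ACTA1, the skeletal muscle actin, was listed at 0 in all 3 LIMF libraries and in HIMF1, and at 9637 and 8025 in HIMF2 and HIMF3. GAPDH and ALDOA, enzymes of glycolysis, were listed at 0 in LIMF2, and the mitochondrial ATP6 and COX3 in LIMF2 and LIMF3. In all 12 genes were at 0 in a muscle library and above 50 FPKM in another, and no fold change is given for them. Total FPKM was 430581 to 450875 in LIMF and 496972 to 517796 in HIMF.

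Of 14292 genes tested with limma on log2(FPKM + 0.1), 0 (0.00%) met both limits of the study, an adjusted p below 0.01 and a log2 fold change of 1 or more in either direction. The lowest adjusted p in limma was 0.362. Without adjustment, 1004 genes (7.02%) had a limma p below 0.05, 644 of them higher in HIMF (4.51%) and 360 lower (2.52%). In the following, the libraries of a gene are said not to overlap when each HIMF library lay above, or each below, every LIMF library. This held for 12.7% of genes, 1133 higher in HIMF (7.93%) and 678 lower (4.74%), and for these the exact permutation test gives a two-sided p of 0.10, the smallest that 3 libraries against 3 allow. A log2 fold change of 1 or more in size was found in 204 of the higher genes (1.43% of all) and 146 of the lower genes (1.02%). LIMF2 was at least 3 times both other LIMF libraries in 21 of these 146 genes, LIMF1 in 6 and LIMF3 in 7. Scaling the libraries by the median of ratios turned the split without overlap from 1133 and 678 into 945 higher and 855 lower (6.61% and 5.98%), and quantile scaling into 1040 and 831 (7.28% and 5.81%). With fewer libraries overlap is rarer in all genes, and the shares were 10.8% higher and 11.1% lower without LIMF1, 13.6% and 8.21% without LIMF2, and 21.3% and 11.5% without LIMF3. No single gene below passed the limits, so each is given by its values, and fold changes are on the log2(FPKM + 0.1) scale, which understates those of low genes. A signed value in brackets after the levels, or after the words higher, lower or overlapped, is such a log2 fold change, HIMF minus LIMF.

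The insulin signalling genes divided at the receptor and its adaptors. INSR, the insulin receptor (chromosome 2, 71797209 to 71939923), was at 8.51, 6.4 and 4.27 FPKM in LIMF, against 1.99, 1.26 and 1.88 in HIMF. The lowest LIMF library was over all HIMF libraries, with a log2 fold change of -1.81 (standard error 0.31). IGF1R, the receptor of insulin-like growth factor 1 (chromosome 1, 137383623 to 137691038), was at 1.80, 1.45 and 1.35 in LIMF, against 0.899, 0.589 and 0.631 in HIMF, again without overlap, at -1.03 (standard error 0.27).

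The 2 IRS adaptors, which pass the signal on from the receptor, went opposite ways. IRS2 was at 10.8, 6.90 and 7.61 FPKM in LIMF, against 3.64, 2.0 and 2.09 in HIMF (-1.70, standard error 0.30). IRS1 (chromosome 15, 128245846 to 128307321) was at 8.13, 13 and 15.0 in LIMF, against 25.3, 41.0 and 20.1 in HIMF (1.23, standard error 0.33). Neither gene overlapped between the groups, and by FPKM, which is per length, IRS1 was above IRS2 in every muscle library but LIMF1. Further along the pathway PIK3R1, a regulatory subunit of PI 3-kinase, was higher in HIMF without overlap at 0.99, but at 0.30 without LIMF1, where its level of 3.16 FPKM lay under the 13.9 and 13.5 of LIMF2 and LIMF3. TBC1D4, which holds the glucose transporter inside the cell until insulin acts, was at 12.7, 14.9 and 18.8 in LIMF, against 22.7, 19.5 and 21.3 in HIMF. The transporter gene itself, SLC2A4, overlapped, at 141, 140 and 152 against 105, 149 and 119. TBC1D1, a relative of TBC1D4, spanned 3.42 to 36.3 in LIMF, against 1.14 to 3.92 in HIMF, with the LIMF3 level inside the HIMF range. PTPN1, a phosphatase that acts on the receptor, was lower in HIMF at -0.53, and at -0.16 without LIMF2. Over the 18 genes tested from the receptor to glucose uptake, 3 were higher and 4 lower without overlap (all genes 7.93% and 4.74%) and the median log2 fold change was -0.25, where that of all genes tested was 0.04. Without LIMF3 the counts were 3 and 9, where the shares of all genes tested were 21.3% higher and 11.5% lower. INSR and IRS2 are among 85 genes that the study selected on these same libraries, so their direction is no independent evidence.

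A pair of gamma subunit genes of AMPK, both from the study's list, went opposite ways between the groups. PRKAG3, the gamma subunit particular to fast skeletal muscle (chromosome 15, 120859486 to 120866308), was at 16.1, 7.88 and 10.6 FPKM in LIMF, against 31.9, 54.4 and 30.3 in HIMF. PRKAG2, another gamma subunit, was at 45.6, 10.5 and 4.72 in LIMF, against 3.49, 2.45 and 4.23 in HIMF. PRKAG2 was therefore above PRKAG3 in LIMF1 and LIMF2, while PRKAG3 was above PRKAG2 in LIMF3 and in all HIMF libraries. The log2 fold change of PRKAG2 was -1.96, and -1.07 without LIMF1. The beta subunit gene PRKAB2 did not overlap either, at 94.1, 70.5 and 73.6 against 121, 94.2 and 108 FPKM, with the closest libraries nearly touching. MLYCD encodes the enzyme that removes malonyl-CoA, an inhibitor of fatty acid import into mitochondria. It was at 22.1, 13.1 and 17.6 in LIMF, against 6.36, 4.63 and 11.5 in HIMF (-1.29, standard error 0.35). Of 10 AMPK genes tested, 2 were higher and 2 lower without overlap, where the shares of all genes were 7.93% and 4.74%, and each of the scalings gave 1 higher and 3 lower.

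Of 12 genes of protein turnover and autophagy, 0 were higher and 5 lower in HIMF without overlap, where the shares of all genes were 7.93% and 4.74%, and all 5 were selected by the study on these libraries. RETREG1, a receptor for autophagy of the endoplasmic reticulum (chromosome 16, 5726493 to 5879461), was at 60.9, 183 and 54.2 FPKM in LIMF, against 14.8, 11.8 and 15.6 in HIMF. This gave a log2 fold change of -2.59 (standard error 0.44), and -2.03 without LIMF2. GABARAPL1, a protein of the autophagosome membrane, was at 15.8, 38.6 and 26.0 in LIMF, against 7.55, 9.86 and 8.38 in HIMF. FBXO32, the muscle ubiquitin ligase atrogin-1, was at 157, 287 and 120 in LIMF, against 63.2, 39.8 and 71.4 in HIMF.

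The ubiquitin ligase gene RNF41 was at 8.93, 17.0 and 6.86 FPKM in LIMF, against 2.39, 3.41 and 2.98 in HIMF (-1.77). KLHL34, a protein of the kelch family, was at 23.4, 12.9 and 12.3 in LIMF, against 3.41, 2.35 and 7.57 in HIMF (-1.95). These 5 genes are from the study's list. Outside it, WIPI1 and MAP1LC3B, which act in forming the autophagosome, were lower without overlap at -1.09 and -0.67, and so was KLF15, a transcription factor of muscle metabolism, at -0.78. MAP1LC3B was at -0.40 without LIMF3, and KLF15 at -0.48 without LIMF2, the library with kidney genes. ATG12 and ULK1 were higher without overlap, at 0.40 and 0.27, and ULK1 was at 0.13 without LIMF2. TRIM63, the other classic atrophy ligase, overlapped, at 317, 443 and 151 FPKM in LIMF against 154, 206 and 252 in HIMF. FOXO1 and FOXO3 overlapped too, at -0.26 and -0.43. Of 16 autophagy genes 2 were higher and 4 lower without overlap (all genes 7.93% and 4.74%), and their median was 0.01, between -0.15 and 0.06 without single LIMF libraries. Of the 14 autophagy genes outside the study's list 2 were higher and 2 lower, with a median of 0.09, and of 14 FoxO and atrophy genes 0 were higher and 2 lower, against the same shares of all genes. LIMF2, the library with kidney genes, had the highest level in the muscle of RETREG1, GABARAPL1, FBXO32, RNF41, TRIM63 and FOXO1.

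**Figure D2:**
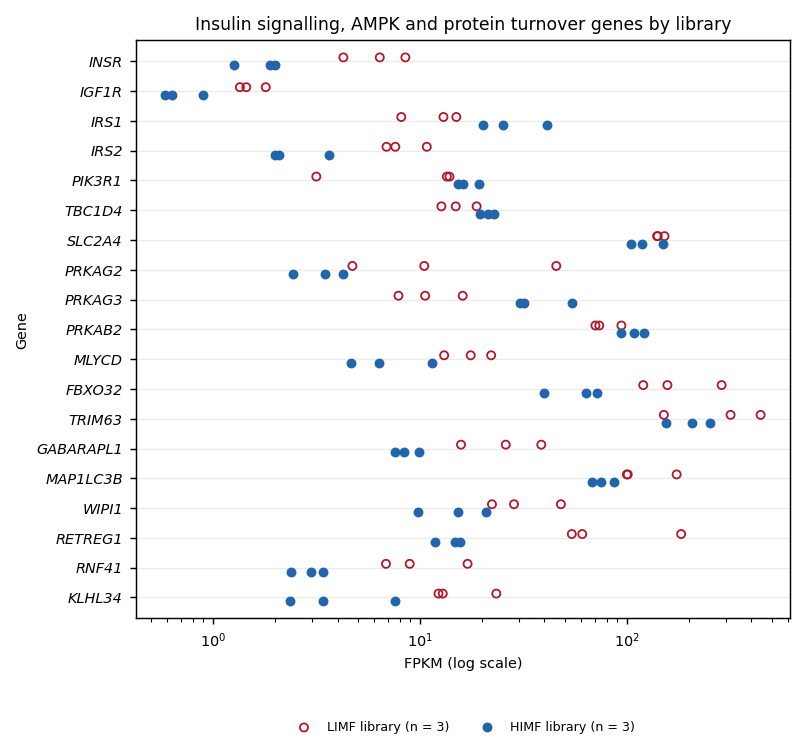
FPKM on a log axis of 19 genes of insulin signalling, AMPK and protein turnover, with 1 open circle per LIMF library and 1 filled circle per HIMF library. INSR and IRS2 lie lower and IRS1 higher in HIMF without overlap, at log2 fold changes of -1.81, -1.70 and 1.23, while TRIM63 and SLC2A4 overlap.

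Genes of the Z-disc and of the response to stretch were mostly lower in HIMF where their libraries did not overlap. Of 17 such genes tested, 8 were lower in HIMF without overlap and 1 was higher (all genes 4.74% and 7.93%), and the median log2 fold change was -0.95. Of the 13 that are not on the study's list, 4 were lower and 1 higher, with a median of -0.81, which was -0.50 without LIMF1. Leaving out single LIMF libraries gave 8 of the 17 lower without LIMF1, 9 without LIMF2 and 11 without LIMF3, where the shares of all genes were 11.1%, 8.21% and 11.5%, and 1 to 2 higher. Quantile scaling gave 6 of the 17 lower and 0 higher, and 2 of the 13 lower, where 5.81% of all genes were lower. XIRP1, an actin-binding protein of muscle attachment sites (chromosome 13, 23867476 to 23876850), was at 481, 141 and 199 FPKM in LIMF, against 69.1, 34.6 and 26.8 in HIMF (-2.57, standard error 0.51). ANKRD2, an ankyrin repeat protein that moves between the Z-disc and the nucleus on stretch, was at 167, 207 and 94.5 in LIMF, against 23.8, 15.9 and 46.7 in HIMF (-2.50, standard error 0.44). For both genes the lowest LIMF library was over 2 times the highest HIMF library.

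ABRA, an actin-binding protein of the sarcomere, was at 168, 271 and 287 FPKM in LIMF, against 86.9, 79.3 and 94.1 in HIMF (-1.44). HSPB7, a small heat shock protein of striated muscle, was at 103, 144 and 81.3 in LIMF, against 38.5, 19.8 and 64.0 in HIMF (-1.54). LMOD2, which lengthens thin filaments, was at -1.50, and NRAP, a scaffold of actin filaments, at -0.93, both without overlap. FLNC, the muscle filamin, was at 843, 382 and 254 in LIMF, against 222, 183 and 207 in HIMF, so that its -1.09 became -0.61 without LIMF1. CRYAB, the chaperone alpha B-crystallin, was at 1836, 4320 and 2024 in LIMF, against 1768, 967 and 1741 in HIMF, and its -0.81 became -0.42 without LIMF2 and -0.52 without HIMF2. MYOZ1, a Z-disc protein of fast fibres, was the exception, higher in HIMF without overlap at 0.54, but it overlapped under both scalings and was at 0.32 without LIMF2.

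Further genes of the actin filament, most of them from the study's list, were lower as well. PFN2, a profilin that supplies actin monomers, was at 91.6, 155 and 188 FPKM in LIMF, against 51.4, 44.2 and 54.7 in HIMF (-1.47). ENAH, which promotes filament growth, was at 11.2, 13.2 and 13.7 in LIMF, against 5.64, 4.65 and 6.22 in HIMF (-1.19). ACTN2, the Z-disc alpha-actinin, was at 729, 832 and 762 in LIMF, against 384, 338 and 563 in HIMF (-0.89), and PDLIM1, which binds alpha-actinin, at 36.9, 22.3 and 57.9 against 13, 8.65 and 21.9 (-1.42). PPP1R27 and RFLNA were lower without overlap at -1.52 and -1.46, of which RFLNA was at -0.94 without LIMF1. Of all 23 genes of the sarcomere and actin list, 2 were higher and 11 lower without overlap (all genes 7.93% and 4.74%). Of the 15 among them that the study did not select, 2 were higher and 3 lower, with a median of 0.11 that was -0.12 without LIMF2.

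Of 9 fast fibre genes tested, 4 were higher without overlap and 0 lower (all genes 7.93% and 4.74%), with a median log2 fold change of 0.49. Median-of-ratios and quantile scaling each left 1 gene higher without overlap, with medians of 0.44 and 0.34, where 6.61% and 7.28% of all genes were higher, and the median was 0.27 without LIMF3. ATP2A1, the calcium pump of fast fibres, was at 2461, 1610 and 2087 FPKM in LIMF, against 3104, 4090 and 2643 in HIMF (0.67). MYBPC2, the fast myosin-binding protein C, was at 973, 861 and 496 in LIMF, against 1016, 1437 and 1023 in HIMF (0.61, and 0.32 without LIMF3). MYLK2, the skeletal myosin light chain kinase, was at 212, 53.5 and 244 in LIMF, against 353, 408 and 353 in HIMF, and its 1.40 became 0.70 without LIMF2. Of 8 slow fibre genes 0 were without overlap and the median was -0.78, which moved to -0.22 without LIMF3, the library with the highest slow fibre genes. Without LIMF2 the median was -1.37 and 5 of the 8 were lower without overlap, where 8.21% of all genes were lower. Among the myosins of developing muscle, which share sequence and can share reads, MYH8 was at 17.0, 21.6 and 9.34 in LIMF, against 61.4, 51.7 and 36.1 in HIMF (1.68, standard error 0.34). MYH3 was higher without overlap at 1.02. Of 10 myogenic regulators, which drive the forming of muscle fibres, 0 were higher and 1 was lower without overlap, MEF2D at -0.71 (all genes 7.93% and 4.74%). The log2 fold change was above 0 in 9 of the 10, with a median of 0.30, and of 0.21 to 0.29 without single LIMF libraries.

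Of 17 gene identifiers of glycolysis and glycogen metabolism tested, in which LDHB has 2, 4 were higher in HIMF without overlap and 0 lower (all genes 7.93% and 4.74%), at a median of 0.45, including GAPDH and ALDOA with their listed 0. The median was 0.18 without LIMF3 and 0.70 without LIMF1, where 9 of the 17 were higher without overlap against 10.8% of all genes. Median-of-ratios scaling gave 2 genes higher without overlap and quantile scaling 4, where 6.61% and 7.28% of all genes were higher. The other 13 overlapped in the deposited values. PHKG1, the catalytic subunit of muscle phosphorylase kinase, was at 21.5, 13.6 and 23.6 FPKM in LIMF, against 37.8, 47.0 and 50.1 in HIMF (1.23, standard error 0.25). PHKA1, a regulatory subunit of the same kinase, was at 170, 89.9 and 96.8 in LIMF, against 203, 215 and 226 in HIMF (0.91). LDHA, the muscle lactate dehydrogenase, was at 2609, 1833 and 1286 in LIMF, against 3188, 4505 and 2711 in HIMF, and TPI1 was higher without overlap at 0.68.

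PFKFB3, FBP2 and PFKL, genes of fructose phosphate turnover chosen after their values were seen, did not overlap, while PFKM, the muscle phosphofructokinase, overlapped at 0.40 (-0.03 without LIMF3) and so did ALDOA. PFKFB3, which makes the activator of phosphofructokinase (chromosome 10, 64776315 to 64859118), was at 1.51, 1.43 and 7.98 FPKM in LIMF, against 68.4, 74.8 and 12.5 in HIMF. In limma the difference was 3.89 on the log2 scale (standard error 0.84) with an adjusted p of 0.475, and HIMF3 lay far closer to LIMF3 than to the other HIMF libraries. FBP2, the muscle fructose bisphosphatase, was at 368, 118 and 184 in LIMF, against 432, 564 and 510 in HIMF (1.32). PFKL, the liver form of phosphofructokinase, was lower, at 5.36, 5.29 and 4.28 against 1.81, 1.62 and 3.70. AMPD1, the AMP deaminase of fast muscle and chosen in the same way, was higher at 1.04.

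Genes of the mature adipocyte were mostly higher in HIMF where their libraries did not overlap. ADIPOQ, the adipocyte hormone adiponectin (chromosome 13, 124633906 to 124646237), was at 4.27, 6.46 and 1.31 FPKM in LIMF, against 21.8, 8.36 and 11.2 in HIMF (1.90, standard error 0.58, and 1.26 without LIMF3). PLIN1, the coat protein of the adipocyte lipid droplet (chromosome 7, 55237517 to 55250797), was at 0.975, 1.70 and 0.343 in LIMF, against 4.90, 3.67 and 2.71 in HIMF (1.98, standard error 0.50). LEP, the hormone leptin, was at 0.099, 0.048 and 0.031 in LIMF, against 0.453, 0.440 and 0.348 in HIMF (1.71). The groups did not overlap for any of the 3, and LIMF3 was the lowest library for each.

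The levels were far under those of fat, where the group means of PLIN1 were 598 and 679 FPKM and those of ADIPOQ 2420 and 2410. FASN, the fatty acid synthase, was at 1.08, 1.39 and 1.07 in LIMF, against 1.85, 1.66 and 1.73 in HIMF (0.54), and ELOVL6, which lengthens the acids it makes, at 0.698, 0.352 and 0.558 against 1.28, 1.32 and 1.01 (1.06). THRSP, a regulator of fatty acid synthesis, was at 1.67, and GPD1, which makes glycerol phosphate and is abundant in the fibres too, at 1.03, and at 0.64 without LIMF2. A pair of further genes of fat was picked after their values were seen. AQP3, a glycerol channel, was at 1.51, 2.47 and 0.788 FPKM in LIMF, against 5.18, 5.22 and 5.17 in HIMF (1.78), and TRARG1, a protein of glucose transporter trafficking, was at 1.49, and at 0.91 without LIMF3. The other adipocyte genes overlapped, among them FABP4, the adipocyte fatty acid binding protein, at 25.3, 49.5 and 40.3 against 46.1, 40.2 and 42.5, and PPARG, the master regulator of adipocytes, at 0.279, 0.787 and 0.738 against 1.15, 0.632 and 0.50. Of 20 adipocyte genes tested 7 were higher without overlap and 1 was lower (all genes 7.93% and 4.74%), with a median of 0.45. The log2 fold change was above 0 in 14 of the 20 and ran from -2.65, in a gene that overlapped, to 1.98. Without the study's own gene LEP, 6 of 19 were higher, and leaving out single LIMF libraries gave 8 to 9 of the 20 higher and 1 to 2 lower. The share of all genes tested that were higher was then 10.8% without LIMF1, 13.6% without LIMF2 and 21.3% without LIMF3. More adipocytes and more RNA of these genes per adipocyte cannot be told apart in whole muscle.

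The adipocyte gene that was lower was LPL, the lipase that frees fatty acids from lipoproteins and that fibres also make (chromosome 14, 4104761 to 4134964). It was at 85.1, 76.3 and 136 FPKM in LIMF, against 40.4, 21.6 and 67.0 in HIMF (-1.30, standard error 0.42). Some genes of lipid droplets were lower as well. PLIN2, the droplet coat protein of non-adipose cells (chromosome 1, 203683867 to 203709277), was at 62.3, 38.5 and 59.0 in LIMF, against 21.9, 20.9 and 32.5 in HIMF (-1.08, standard error 0.27). GK, the glycerol kinase, was at 1.81, 3.62 and 1.93 in LIMF, against 0.427, 0.312 and 1.03 in HIMF (-1.96). PLIN1 and PLIN2, coats of the same organelle, were thus opposite between the groups.

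ABHD2, a serine hydrolase of lipids (chromosome 7, 54655694 to 54776140), was at 6.09, 8.55 and 3.0 FPKM in LIMF, against 0.487, 0.353 and 1.33 in HIMF (-2.92). SMPDL3A, a phosphodiesterase related to acid sphingomyelinase, was at 13.6, 29.5 and 4.72 in LIMF, against 1.74, 1.12 and 1.54 in HIMF, with -3.02 in all libraries and -2.40 without LIMF2. PLIN3 and ABHD5, the latter an activator of the first lipase of lipolysis, were lower without overlap at -0.42 and -0.45. PLIN3 was at -0.25 without HIMF2, and ABHD5 at -0.26 without LIMF2. Of 15 lipid droplet and lipolysis genes, 0 were higher and 4 lower without overlap (all genes 7.93% and 4.74%), with a median of -0.45, and the other 11 overlapped. The log2 fold change was above 0 in 3 of the 15. The largest in size was that of G0S2, at 0.748, 0 and 1.43 FPKM in LIMF, against 11.0, 2.13 and 1.14 in HIMF (2.63, and 1.46 without LIMF2). GK, ABHD2 and SMPDL3A are from the study's list, as are PPARA and BDH1 among the genes of oxidation that follow.

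PPARA, the nuclear receptor that drives fatty acid oxidation, was at 9.39, 6.85 and 9.40 FPKM in LIMF, against 2.59, 2.43 and 4.25 in HIMF (-1.47). Its coactivator PPARGC1A was at 32.0, 7.06 and 6.61 in LIMF, against 2.98, 5.42 and 5.69 in HIMF, and its -1.32 became -0.59 without LIMF1. ESRRG, a nuclear receptor of oxidative fibres that was picked after its values were seen, was likewise highest in LIMF1, at 11.1 against 1.16 and 1.37, and its -1.71 became -0.70 without that library. ACSL1, which activates fatty acids, was at 258, 275 and 202 in LIMF, against 74.5, 84.4 and 188 in HIMF (-1.20). FABP3, the muscle fatty acid binding protein (chromosome 6, 87943003 to 87950708), was at 329, 365 and 758 in LIMF, against 100, 42.4 and 295 in HIMF (-2.06, and -1.39 without HIMF2). ACSL4, a relative of ACSL1, was opposite to it, at 5.55, 5.59 and 7.03 against 11.2, 9.73 and 8.02 (0.66), without overlap. BDH1, which acts on ketone bodies, was at 10.8, 8.32 and 3.73 in LIMF, against 1.60, 1.24 and 3.59 in HIMF (-1.80).

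The enzymes of the oxidation pathway itself overlapped between the groups. Of 23 fatty acid oxidation genes 0 were higher and 4 lower without overlap (all genes 7.93% and 4.74%), and the 4 were PPARA, PPARGC1A, ACSL1 and FABP3, with a median over the list of -0.28, which was -0.03 without LIMF3 and -0.49 without LIMF2. A shorter list of 14 genes of fatty acid oxidation and ketone bodies gave 1 higher, ACSL4, and 2 lower, against the same shares. Of 19 nuclear genes of oxidative phosphorylation 0 were without overlap, and their sum was 6747 FPKM in LIMF3 and 3085 to 5369 in the other libraries. CPT1B, the gatekeeper of fatty acid import in muscle, was at 55.6, 44.5 and 121 in LIMF, against 39.3, 46.1 and 64.2 in HIMF. Among genes of sterol and lipid synthesis, SREBF1, the transcription factor of fatty acid synthesis (chromosome 12, 60733967 to 60750951), was at 3.08, 3.08 and 5.55 in LIMF, against 8.10, 14.8 and 6.83 in HIMF (1.30). IDI1, an enzyme of cholesterol synthesis, was higher without overlap at 0.85, and at 0.56 without LIMF2. APOE, an apolipoprotein of fat and macrophages, was at 0.846, 1.31 and 0.497 in LIMF, against 2.49, 3.38 and 1.65 in HIMF (1.43). APOD, a lipid-binding protein picked after its values were seen, was opposite to it, at 78.4, 58.8 and 42.2 against 26.1, 20.9 and 26.8 (-1.24).

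**Figure D3:**
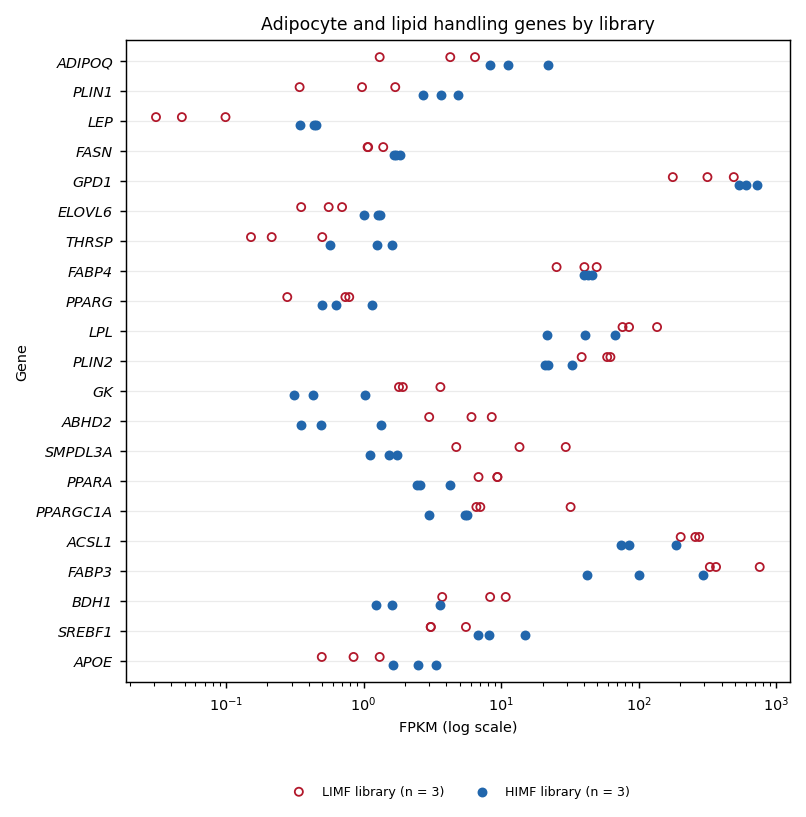
FPKM on a log axis of 21 adipocyte and lipid handling genes, with 1 open circle per LIMF library and 1 filled circle per HIMF library. ADIPOQ, PLIN1 and LEP lie higher in HIMF without overlap, at log2 fold changes of 1.90, 1.98 and 1.71, and LPL, PLIN2 and PPARA lower, at -1.30, -1.08 and -1.47, while FABP4 and PPARG overlap.

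SDR16C5, a retinol dehydrogenase (chromosome 4, 75586346 to 75598985), had the smallest p of all genes tested. It was at 0.257, 0.224 and 0.117 FPKM in LIMF, against 2.07, 2.11 and 1.37 in HIMF, so that the lowest HIMF library was over 5 times the highest LIMF library. In limma the difference was 2.71 on the log2 scale (standard error 0.32) with an adjusted p of 0.362. RLBP1, a retinal-binding protein (chromosome 7, 54783965 to 54800008), was opposite, at 14.8, 20.1 and 7.33 in LIMF, against 1.22, 1.71 and 3.75 in HIMF (-2.64). By the positions above, RLBP1 and ABHD2 lie close together on chromosome 7, and both were lower in HIMF without overlap. Among oxidases of fatty acids and foreign compounds, CYP4B1 was higher in HIMF at 1.85, and CYP4F2 and FMO5 were lower at -2.41 and -1.52, all without overlap. CYP4B1 was at most 0.788 FPKM in the muscle, against means of 280 in LBF and 305 in HBF. CYP4F2 was at 1.06, 0.955 and 5.24 in LIMF, and at -1.65 without LIMF3. FMO5 was at most 0.695, in LIMF2, and at -1.15 without that library. SRXN1, which repairs peroxiredoxins, was at 12.5, 6.29 and 3.97 against 2.43, 1.92 and 2.45 (-1.55). Of the 14 genes in this list of enzymes, 2 were higher and 4 lower without overlap (all genes 7.93% and 4.74%), and all 6 are from the study's list.

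Transporter and channel genes were split evenly, with 6 of 17 higher and 6 lower without overlap (all genes 7.93% and 4.74%), and all 12 are from the study's list. SLC7A5, the transporter of large neutral amino acids such as leucine (chromosome 6, 1545940 to 1574298), was at 3.05, 2.24 and 2.70 FPKM in LIMF, against 8.53, 7.94 and 7.75 in HIMF. Its log2 fold change of 1.58 had a standard error of 0.20 and ranged from 1.46 to 1.68 as single libraries were left out. The taurine transporter SLC6A6 was lower, at 0.381, 1.13 and 1.40 against 0.308, 0.085 and 0.207. The thiamine transporter SLC19A2 was at 5.53, 11.5 and 11.1 against 3.99, 1.72 and 1.52 (-1.97). SLC25A33, a mitochondrial pyrimidine carrier, and SLC9A3R1, a scaffold of membrane transporters, were highest in LIMF2, the library with kidney genes, at 17.2 and 16.4. Their log2 fold changes of -2.05 and -2.18 became -1.27 and -1.26 without that library.

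The potassium channel genes divided as well. KCNH2 and KCNS3 were higher in HIMF at 2.01 and 1.99, and KCNC1 was lower, at 6.70, 3.58 and 0.945 FPKM in LIMF, against 0.849, 0.914 and 0.435 in HIMF (-1.89). The pump genes ATP1B2, a sodium pump subunit, and ATP2B2, a calcium pump of the cell membrane, were both higher at 1.44. TRPM3, a cation channel, was at 0.0118, 0.0336 and 0.0248 in LIMF, against 0.314, 0.256 and 0.0834 in HIMF (1.29), and TMC7 was lower at -2.26. Of the genes that respond to amino acid supply, ASNS, the asparagine synthetase, was higher at 1.10 and STC2, a secreted glycoprotein, lower at -1.53. DDIT4, an inhibitor of mTORC1, was at 37.7, 51.5 and 49.5 in LIMF, against 80.2, 127 and 95.6 in HIMF (1.11), and DEPTOR, an mTOR-binding inhibitor picked after its values were seen, was higher without overlap at 1.03. Of 14 mTORC1 and amino acid sensing genes, 2 were higher and 0 lower without overlap, where 7.93% of all genes were higher.

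Of 19 genes of secreted and surface proteins, 3 were higher and 8 lower in HIMF without overlap (all genes 7.93% and 4.74%), and all of these but APLN are from the study's list. HBEGF, a ligand of the EGF receptor, was at 24.9, 16.4 and 17.6 FPKM in LIMF, against 9.67, 6.67 and 4.39 in HIMF (-1.54). EGF, picked after its values were seen, was opposite, at 16.2, 3.68 and 9.62 against 39.3, 28.7 and 20.1 (1.75), and was at 1.17 without LIMF2. The cytokine gene CSF3 and the vessel peptide gene APLN were lower at -1.79 and -0.98, and ADAMTSL5, a matrix protein, at -1.79. NRCAM, a cell adhesion protein, and GPRC6A, an amino acid and hormone receptor, were lower at -1.38 and -1.22 from levels under 1 FPKM. FZD10, a Wnt receptor, rested on LIMF3, at 2.0 FPKM, with 0.314 and 0.295, and its -1.61 became -0.82 without it. FRZB, a secreted Wnt antagonist picked after its values were seen, was at 25.6, 17.0 and 17.3 in LIMF, against 48.2, 39.9 and 36.7 in HIMF (1.07, standard error 0.23). SUSD1 and MUC15, surface proteins, were higher at 2.58 and 2.23 from levels under 0.5 in LIMF.

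Of 12 transcription factor genes, 0 were higher and 3 lower without overlap (all genes 7.93% and 4.74%), and these were PPARA, SIM1 and PRRX1, all from the study's list. PRRX1, a homeobox factor of connective tissue cells, was at 11.1, 12 and 24.6 FPKM in LIMF, against 6.11, 3.13 and 4.76 in HIMF (-1.70), and SIM1, a factor of limb muscle precursors and neurons, was at -2.13. HOXC11, a homeobox factor from the study's list, overlapped, at -1.92, and was at -0.96 without LIMF3. VGLL2, a cofactor of fibre type genes picked after its values were seen, was at 137, 174 and 192 in LIMF, against 86.4, 60.9 and 94.6 in HIMF (-1.07). Of 18 clock genes 2 were higher without overlap, DBP at 1.09 and BHLHE41 at 0.86, and 0 were lower, where 7.93% of all genes were higher. DBP was at 0.60 without LIMF1.

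Of 5 genes that modify RNA, proteins and glycans, all from the study's list, 4 were higher and 1 was lower in HIMF without overlap (all genes 7.93% and 4.74%). TENT5B and TENT5C, which belong to a family of RNA poly(A) polymerases, went opposite ways. TENT5C was at 0.692, 0.891 and 1.26 FPKM in LIMF, against 4.64, 4.17 and 2.63 in HIMF (1.90), and TENT5B at 2.73, 4.52 and 3.66 against 1.08, 1.02 and 1.61 (-1.48). METTL11B, an N-terminal methyltransferase (chromosome 4, 80854850 to 80932412), was at 8.81, 6.92 and 11.3 in LIMF, against 23.5, 28.2 and 31.5 in HIMF, and its 1.63 (standard error 0.23) ranged from 1.46 to 1.81 as single libraries were left out. GADL1, a decarboxylase of muscle, was at 13.9, 3.52 and 6.89 against 32.8, 78.2 and 19.0 (2.37), and ST8SIA2, a sialyltransferase, was higher at 2.20.

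Among genes of filaments and vesicles, KRT80, a keratin (chromosome 5, 17482454 to 17506462), had a log2 fold change of -3.13, with 1.49, 4.8 and 1.37 FPKM in LIMF, against 0.143, 0.212 and 0.127 in HIMF. KRT14, a keratin that marks skin keratinocytes, was low but had the same direction without overlap, at 0.185, 0.251 and 0.477 in LIMF, against 0.178, 0.0522 and 0.101 in HIMF (-0.92). The part of skin cells in the level of KRT80 was not tested, and LIMF2 was highest for KRT80 and LIMF3 for KRT14. The kinesin gene KIF3C was at 2.04, 1.73 and 2.43 in LIMF, against 5.19, 4.75 and 5.94 in HIMF (1.32, standard error 0.22), and DCLK1, a kinase on microtubules, was higher at 1.39. HOOK2, which links vesicles to microtubules, was lower at -1.20. STX3, a vesicle fusion protein, overlapped at -1.84, and DDN, at -1.54, was at -0.71 without LIMF3.

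**Figure D4:**
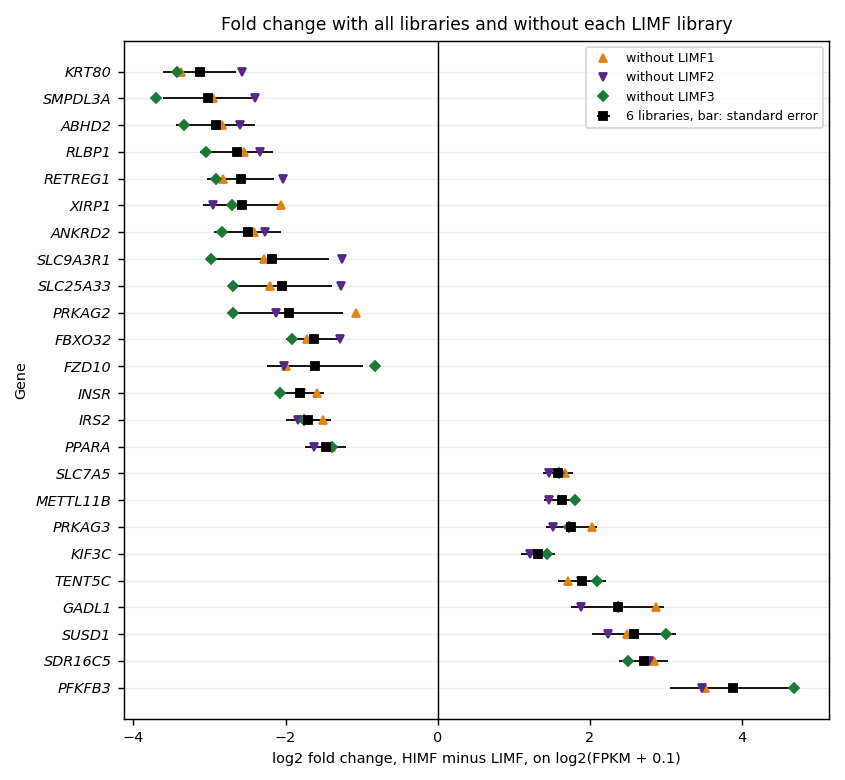
Log2 fold change (HIMF minus LIMF, x axis) of 24 genes with all 6 libraries (squares, bars give the standard error) and without each LIMF library (triangles and diamonds). All values keep their side of 0, which is bound to be so for genes whose libraries do not overlap. The widest moves towards 0 are those of PRKAG2 (-1.96, and -1.07 without LIMF1), SLC9A3R1 (-2.18, and -1.26 without LIMF2) and FZD10 (-1.61, and -0.82 without LIMF3).

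Of 7 muscle fibre markers 2 were higher and 3 lower without overlap (all genes 7.93% and 4.74%), and each of the scalings gave 1 higher and 2 lower. Of 7 macrophage and leukocyte markers 0 were without overlap, and their sum was 21.3 to 42.2 FPKM in LIMF and 16.2 to 27.8 in HIMF. A further 12 macrophage and T cell genes, 12 collagen and matrix genes and 7 genes of endothelial cells also gave 0 without overlap. Of 9 genes of fibro-adipogenic progenitors 1 was lower without overlap, DLK1 at -0.87 (-0.56 without LIMF2), from 0.196 to 0.509 FPKM in LIMF. Of 4 Schwann and nerve genes 1 was lower, PMP22 at -0.75, and the median of the 4 was -0.68. Of 7 endothelial markers only APLN was lower, and of 7 stromal markers PRRX1 and MGP, an inhibitor of calcification at -0.54, and at -0.31 without HIMF2, were lower. The smooth muscle marker TAGLN overlapped. Of 12 heat shock genes, 3 red cell genes and 13 genes of branched-chain amino acid breakdown, 0 were without overlap.

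**Figure D5:**
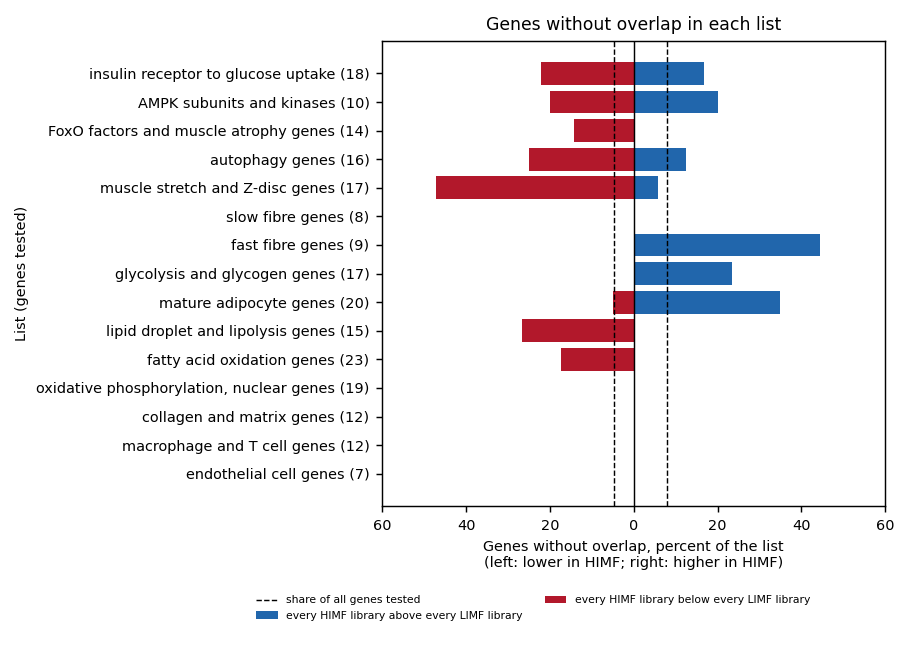
Share of the genes of 15 lists (number tested in brackets) whose libraries do not overlap, lower in HIMF to the left and higher to the right, in percent. Dashed lines give the same share of all genes tested, 4.74% lower and 7.93% higher. The Z-disc list has 8 of 17 genes lower, and the adipocyte list 7 of 20 and the fast fibre list 4 of 9 genes higher.

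The mRNA of the proteins that the study lists for the muscle mostly overlapped between the groups. Of the 11 such genes tested, PDLIM1 and LMOD2 had mRNA without overlap, both lower in HIMF, where 4.74% of all genes were lower and 7.93% higher. GPX3, a secreted glutathione peroxidase that the kidney makes, was at 184 FPKM in LIMF2 and at 43.9 to 65.2 in the other 5 libraries, so its log2 fold change of -0.54 became 0.10 without LIMF2. MYL10, a myosin light chain, was at 0.878 in LIMF3 and listed at 0 in the other libraries. PTGR2, a reductase of prostaglandins, was at 40.8, 23.2 and 52.2 in LIMF, against 29.1, 23.5 and 26.4 in HIMF.

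Of the genes without a symbol, ENSSSCG00000040577 and ENSSSCG00000037808 had the smallest p among those higher in HIMF, with log2 fold changes of 1.83 and 1.93. The latter was at 6.87, 5.40 and 7.41 FPKM in LIMF, against 16.9, 28.1 and 33.1 in HIMF. Lower in HIMF with the smallest p were ENSSSCG00000041387, at 536, 223 and 275 in LIMF against 82.4, 58.8 and 31.4 in HIMF (-2.58), and ENSSSCG00000038594 (-1.89). None of these 4 overlapped between the groups, and all but ENSSSCG00000040577 are on the study's list.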

How the data were processed

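RNA from 6 LD muscles was sequenced by the study. Per the methods and the labels, the authors used fastp to filter reads and HISAT2 for alignment to Sscrofa11.1, and the deposited FPKM of each gene came from Cufflinks 2.2.1. Their own test ran on counts with DESeq2 1.25.9, and those counts were not analysed here. The deposited FPKM table holds 31903 gene identifiers, of which 7 on 2 lines each were summed, and 15054 were paired with a symbol. It holds no read depth, so counting error is unknown, and no interval is given for single values. Positions are those of RefSeq for Sscrofa11.1. No column outside the mapped libraries was used (0).

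Genes with a mean above 0.05 FPKM in the 6 libraries (14292) were tested on log2(FPKM + 0.1) with limma 3.58.1 in R 4.3.3, as HIMF minus LIMF with an intensity trend and Benjamini-Hochberg adjustment. Calls needed an adjusted p below 0.01 with a log2 fold change of 1 or more in either direction. On simulated data for this comparison, a log2 shift of 3 was called in 148 of 200 genes, with 1 other gene, of 14292.

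Members and gene lists were chosen with earlier results of these data known. Genes are named when they belong to a list and are on the study's muscle gene or protein list, or do not overlap and differ by 0.5 or more (log2), or mark a cell type. Members of the textbook pathway lists are named as examples, and the genes said to be picked after their values were seen fall outside the rule. Of genes without a symbol, 2 in each direction with a mean above 1 FPKM are given. The alternatives were other pseudocounts, filters and scalings, single libraries left out, a replicate block, the 12-library fit and the fit without a trend. Leaving out LIMF1 and LIMF2 together was added after seeing the data, as were the kidney and Y-linked gene checks. A few genes of these lists are counted but not reported by name here.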

Additional observations from a re-analysis of the deposited data

How the results depend on the processing

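With limma, 0 genes were called under pseudocounts of 1 and 0.01, other filters, both scalings, the fit without a trend, an adjusted p under 0.05 at any fold, and the replicate block. Leaving out single libraries gave 0 to 5 calls: 5 without LIMF1 (ATP6, COX3, CKM, MARK4 and ENSSSCG00000034799), 1 without LIMF3 (ENSSSCG00000044426) and 1 without HIMF1 (ACTA1), of which all but ENSSSCG00000034799 are listed at 0 in some library, and that gene was near 0 in LIMF2 and LIMF3. Without LIMF1 and LIMF2 together, chosen after seeing the data, 3 were called (ATP6, COX3 and CKM), with the lone LIMF library assumed to vary like the others. The fit of all 12 libraries called 1 gene, SDR16C5 (adjusted p = 0.00478 from limma), and gave 1566 genes at an unadjusted p under 0.05. That count ranged from 524 without HIMF2 to 1982 without LIMF3 as single libraries were left out. Genes without overlap ranged from 2628 without HIMF2 to 4687 without LIMF3, and were 7983 without LIMF1 and LIMF2, where fewer libraries make overlap rarer. Same-numbered libraries come from different pigs and share only a number: their deviations correlated at -0.073, 0.045 and -0.053, and the replicate block gave 934 genes at an unadjusted p under 0.05. Of 2345 values of named genes under the alternatives, 2331 kept their direction. Many of these could not reverse. Other filters, the replicate block, the 12-library fit and the fit without a trend leave the fold change itself as it was. For a gene without overlap, leaving out libraries cannot change its sign. The count is therefore no measure of stability. The 14 that reversed came with left-out libraries, in genes that overlap. The values ranged from -0.06 (without LIMF1) to 0.42 for FABP4, from -0.78 to 0.78 for FOXO1 (0.16 without LIMF2, 0.15 without HIMF1), from -0.87 to 0.44 for FOXO3 (0.03 without LIMF2), from -0.85 to 0.10 for GPX3 (0.10 without LIMF2, 0.09 without LIMF1 and LIMF2), from -0.07 (without LIMF1) to 0.54 for PPARG (-0.03 without LIMF1 and LIMF2), from -0.78 to 0.27 for TAGLN (0.05 without HIMF3), from -0.91 to 0.40 for TRIM63 and from -0.03 (without LIMF3) to 1.26 (without LIMF1 and LIMF2) for PFKM. The cause was not tested. With 3 libraries a group and no read depth, low genes and small differences cannot be resolved.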
